A study of Mus musculus with 2 samples.

Results

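Aminoacyl-tRNA synthetases and the genes that supply and sense amino acids were compared between APL#1 and APL#2, 2 acute promyelocytic leukaemias of the mouse. The 39 genes were chosen by name: 20 cytosolic synthetase genes, 4 mitochondrial synthetase genes, 7 enzymes of asparagine, serine and one-carbon metabolism, 4 genes of the starvation response and 4 amino acid transporter genes. All 39 were found among the 23235 genes of the deposited table, and all had signal in both libraries.

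Each leukaemia was sequenced as 1 library, so the differences have no replicates behind them and no test was run. Both leukaemias arose in mice labelled as PML-RAR knock-in and, in another field, as mCG-PML-RAR transgenic, on the strain C57BL/6-Ly5.2, with an age of 10 weeks and no treatment (VEH also stands in the titles, unexplained). The cells carried CD45.2 and were injected into recipients of the strain C57BL/6-Ly5.1 that had not been irradiated and so kept their own blood cells. APL#1 was given as 2000000 cells and APL#2 as 200000, so cell dose, recipient, library and leukaemia cannot be told apart. The CD45.2+ cells were taken from spleen on magnetic columns, and each library stands for 1 leukaemia. The series describes the leukaemias as clones that differ in how often their cells can initiate disease.

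Aminoacyl-tRNA synthetases attach each amino acid to its tRNA, which makes them the entry point of amino acids into protein synthesis. Separate genes serve the cytosol and the mitochondrion for most amino acids, and several cytosolic enzymes sit together in a multisynthetase complex. When amino acids run short, uncharged tRNA activates the kinase GCN2, translation is slowed, and the transcription factor ATF4 is made from its stored messenger RNA. ATF4 binds composite elements in the promoters of asparagine synthetase, serine synthesis, transporter and many synthetase genes. Asparagine supply has long been of interest in leukaemias other than the promyelocytic one studied here, since asparaginase is used to treat some of them.

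Because many of these genes are known as ATF4 targets, the core of the ATF4 element, TGATGNAA, was searched on both strands of RefSeq promoter windows of 300 bases (250 before to 50 after the gene start, build GRCm38.p6). Of the 39 genes, 29 had an entry in the promoter table, and 9 of the 29 held the motif (31.0%), against 1219 of all 27025 genes in that table (4.51%). No other motif was searched. A match describes the letters only and is not evidence of binding. The holders were the synthetase genes Aars, Gars, Iars, Tars and Yars, the asparagine synthetase gene Asns, the starvation response genes Chac1 and Trib3, and the cystine transporter gene Slc7a11. The stretches that carry the matches are printed because they are a feature shared by members of different roles. Each is written 5′ to 3′ on the gene's strand, with the match in capitals, in either orientation.
Asns: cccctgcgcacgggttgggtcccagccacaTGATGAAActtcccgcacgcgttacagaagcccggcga
Chac1: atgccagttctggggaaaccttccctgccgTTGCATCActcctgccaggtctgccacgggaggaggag
Trib3: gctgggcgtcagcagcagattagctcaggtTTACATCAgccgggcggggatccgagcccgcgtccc
Slc7a11: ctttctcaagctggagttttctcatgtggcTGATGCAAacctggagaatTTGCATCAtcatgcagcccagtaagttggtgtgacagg
Aars: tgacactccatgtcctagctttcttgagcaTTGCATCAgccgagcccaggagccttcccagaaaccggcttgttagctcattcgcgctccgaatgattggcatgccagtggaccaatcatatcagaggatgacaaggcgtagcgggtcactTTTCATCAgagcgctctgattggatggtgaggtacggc
Gars: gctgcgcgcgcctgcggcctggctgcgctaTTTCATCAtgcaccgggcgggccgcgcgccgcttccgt
Iars: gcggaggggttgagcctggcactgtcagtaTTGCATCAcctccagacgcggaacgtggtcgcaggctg
Tars: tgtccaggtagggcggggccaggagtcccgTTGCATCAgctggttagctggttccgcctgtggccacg
Yars: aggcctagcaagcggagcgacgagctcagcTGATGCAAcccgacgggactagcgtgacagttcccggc

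In GRCm38.p6 the Asns stretch lies on the minus strand at chr6:7693195-7693262, and its match begins 23 bases before the gene start. The Slc7a11 stretch (chr3:50443623-50443709, minus strand) holds 2 matches in opposite orientation, and the Aars stretch (chr8:111033700-111033888, plus strand) also holds 2. The stretches of Chac1 (chr2:119351019-119351086, plus strand) and Trib3 (chr2:152344011-152344076, minus strand) hold 1 match each. The others lie at chr6:55037941-55038008 for Gars, chr13:49682107-49682174 for Iars and chr4:129189876-129189943 for Yars, all on the plus strand, and at chr15:11399636-11399703 for Tars on the minus strand. The holders did not share 1 size of difference between the leukaemias. By plain ratio Asns, Aars, Chac1 and Trib3 were at least 2-fold lower in APL#2, the last pair on 6 or fewer fragments. Gars, Iars, Yars, Tars and Slc7a11 stood within 1.5-fold of equal, Slc7a11 on 27 or fewer fragments. Of 6 holders averaging 0.25 FPKM or more, 2 were at least 2-fold lower. So were 5 of 20 members with an entry and no motif, and 7.32% of all genes at that level. Over the series, 70 measured genes with the motif had a median difference of 0.03 (log2) from the median of all measured genes, and 2876 without it one of -0.0027.

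Levels are given as FPKM, a count of fragments divided by transcript length and by library size, so that levels of different genes can be compared. A gene counts as measured where its FPKM averaged 1 or more, which held for 4100 genes of the series and 18 of the 39 members. Ratios of single genes are plain ratios of FPKM. Counts of 2-fold differences use log2(FPKM + 1), which understates the difference of low genes, unless a plain ratio is named. Most genes of the series were slightly lower in APL#2: the median log2 difference of measured genes was -0.17, and among 8554 genes with signal in both libraries and a mean FPKM of at least 0.25 the median plain ratio was 0.845. Judged by the smallest values in the table, a 2 kb transcript at FPKM 1 rested on some 103 fragments of APL#1 and 112 of APL#2. The intervals given beside ratios are exact 95% binomial (Clopper-Pearson) intervals from such estimated fragments, rest on GENCODE transcript lengths, and cover counting error only.

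Most of the 39 genes had a lower FPKM in APL#2, where most genes at large were lower too, but some of these differences lay within counting error. For 22 of the 39 the counting interval held the median ratio of all genes, so they could not be told from the general shift. FPKM was lower in APL#2 for 34 and higher for 5. Against equal levels, the counting interval lay wholly below a ratio of 1 for 22 genes, held 1 for 13 and lay above 1 for 4. No share over all genes was computed for these interval counts. Among the 36 with a mean FPKM of at least 0.25, 31 were lower, where 69.7% of all such genes were lower. Relative to the median ratio of all genes, 28 of the 39 lay below it, and 6 of the 34 lower genes lay above it, so their direction turns when the libraries are rescaled to that median. By plain ratio, 7 of the 36 were at least 2-fold lower (19.4%), against 7.32% of all genes at that level, and none was at least 2-fold higher, against 3.27%. These were Asns, Phgdh, Psph, Aars, Lars2, Yars2 and Sesn2. Of the 36, only Sesn2 had its higher value above 0.25 and its lower value below it. The plain-ratio rule was added after the data were seen.

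On the log2(FPKM + 1) scale the picture was narrower. Of the 18 measured members, 1 was at least 2-fold lower in APL#2 (5.56%), Lars2, where 2.44% of measured genes were, and 0 were at least 2-fold higher, where 2.10% were. Of the 18, 14 lay below the all-gene median difference, which 50% of genes do by definition, and their median lay 0.06 below it (log2 -0.06). The authors' deposited table gave p at most 0.05 to 1 of the 39 genes, Lars2, against 0.968% of all genes, and q at most 0.05 to 0 of them, against 0.0473%. That p compares these libraries and not replicated leukaemias. The all-gene shares of p and q are not taken at a like level. They include genes at 0 FPKM, 10322 of 23235 in APL#1 and 9860 in APL#2, while all 39 members had signal in both. The standard errors that the authors' test statistics imply ranged from 0.54 to 1.99 (log2) over the 39 genes with a median of 1.06. Of the 39 log2 ratios, 30 were smaller than 1 such error. No share over all genes was computed for that count, so it does not set the members apart.

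**Figure D1:**
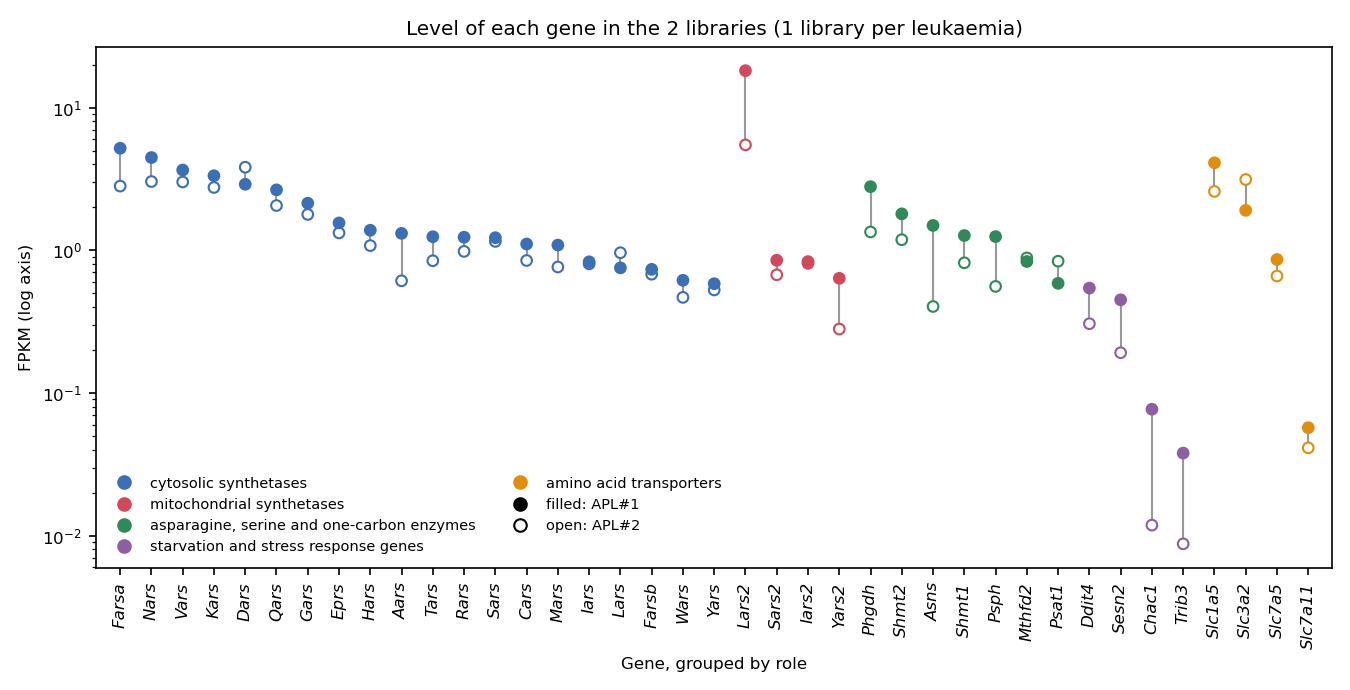
FPKM (log axis) of the 39 genes in APL#1 (filled points) and APL#2 (open points), 1 library each, grouped and coloured by role; grey lines join the values of a gene. Filled points lie above open ones for 34 genes, Lars2 is the highest in both, and Trib3, Chac1 and Slc7a11 are the 3 lowest in both.

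The cytosolic synthetase genes lay within a 10-fold range of levels in each library, in a similar but not identical order. Their FPKM spanned 0.583 to 5.19 in APL#1 and 0.467 to 3.82 in APL#2, with medians of 1.28 and 1.03. The highest gene stood 8.90-fold above the lowest in APL#1 and 8.17-fold in APL#2. Across the 20 genes the log2 levels in the libraries had a Pearson's r of 0.93 and a Spearman's rho of 0.89, a description across genes that share both libraries. The same 8 genes filled the first 8 places in both: Farsa, Nars, Vars, Kars, Dars, Qars, Gars and Eprs.

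The synthetase genes at the top of this order changed places. Farsa, the catalytic subunit of phenylalanyl-tRNA synthetase, took the first place in APL#1 at 5.19 FPKM and the fourth in APL#2 at 2.82, a ratio of 0.543 (interval 0.466 to 0.628). Dars, for aspartate, took the fifth place in APL#1 at 2.90 and the first in APL#2 at 3.82, a ratio of 1.32 (1.10 to 1.58). The intervals of Farsa and Dars lie on opposite sides of the all-gene ratio of 0.845. Farsb, the other phenylalanyl subunit, stood at 0.735 and 0.679, so the level of Farsa was 7.06-fold that of Farsb in APL#1 and 4.15-fold in APL#2. The protein is built from equal numbers of both subunits.

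Aars, for alanine, had the lowest ratio of the 20. Its level was 1.31 FPKM against 0.611 in APL#2, a ratio of 0.465 (0.389 to 0.553), and its place was 10 in APL#1 and 18 in APL#2. Its GENCODE transcript shares 1326 bases with Exosc6, a neighbour at 1.31 and 1.06 FPKM, and reads there may be split between them. Nars, for asparagine, stood at 4.46 and 3.03, a ratio of 0.679 (0.600 to 0.766). Tars, for threonine, stood at 1.24 and 0.844, a ratio of 0.679 (0.558 to 0.820). Aars, Farsa, Nars and Tars were the cytosolic synthetases whose interval lay wholly below the all-gene ratio.

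Most of the other cytosolic synthetases could not be told from the general shift at this depth. For 14 of the 20, the counting interval held the all-gene ratio, a count for which no share over all genes was computed. Vars, for valine, stood at 3.65 and 3.01 FPKM, Kars, for lysine, at 3.33 and 2.75, Qars, for glutamine, at 2.65 and 2.06, and Gars, for glycine, at 2.14 and 1.78. These enzymes of moderate level had ratios of 0.776 to 0.835. Eprs, which joins the glutamate and proline enzymes in 1 protein, stood at 1.55 and 1.32, Hars, for histidine, at 1.38 and 1.08, Rars, for arginine, at 1.23 and 0.982, and Sars, for serine, at 1.22 and 1.15. Cars, for cysteine, stood at 1.11 and 0.848, Mars, for methionine, at 1.09 and 0.763, and Iars, for isoleucine, at 0.830 and 0.802. The lowest levels were those of Wars, for tryptophan, at 0.616 and 0.467, and Yars, for tyrosine, at 0.583 and 0.527. Iars has a processed pseudogene, Gm4849, with 96.0% identity over 1656 bases, so its level is uncertain. Hars overlaps Hars2 over 195 bases and Farsb overlaps Sgpp2 over 250, both on opposite strands.

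Lars, for leucine, was the other cytosolic synthetase with more RNA in APL#2. It stood at 0.753 and 0.961 FPKM, a ratio of 1.28 (1.03 to 1.58). Dars and Lars lie outside the shifted stretches of chromosomes 2, 6 and 19, and no other region was examined for a shift. Both are parts of the multisynthetase complex. The 8 synthetases of that complex had a median plain ratio of 0.839, and the 12 outside it 0.773, beside 0.845 for all genes. The complex's scaffold genes were Aimp1 (4.99 and 5.16 FPKM), Aimp2 (1.14 and 1.20) and Eef1e1 (0.879 and 0.639), so 2 of the 3 lay above the all-gene ratio. Synthetases of both structural classes shared the shift, with median ratios of 0.795 for 9 genes of class I and 0.804 for 10 of class II (Eprs, which holds both, was left out).

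**Figure D2:**
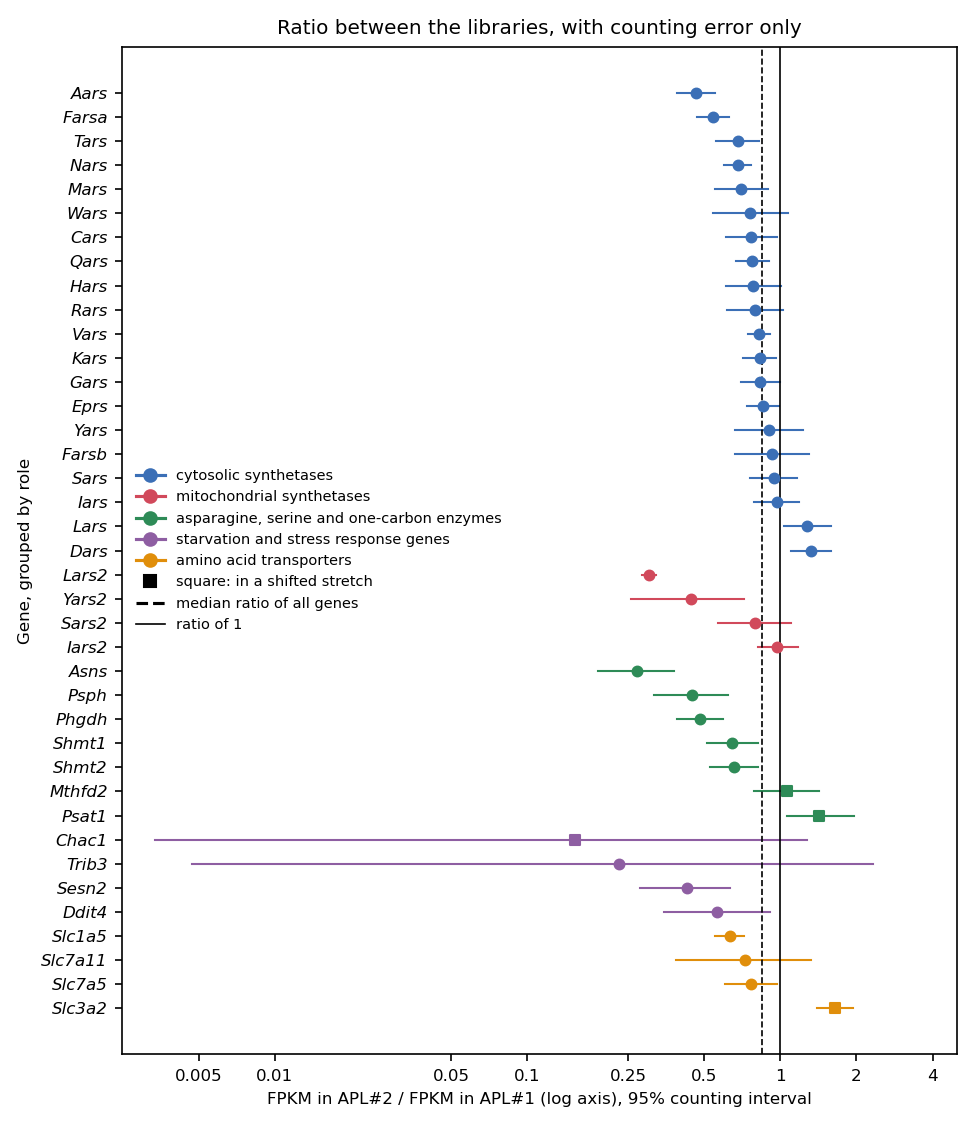
Ratio of FPKM in APL#2 to that in APL#1 (log axis) for each of the 39 genes, grouped by role, with 95% counting intervals that cover no variation between animals or libraries; squares mark genes in shifted chromosome stretches, the dashed line the all-gene median of 0.845 and the solid line equal levels. For 22 genes the interval holds the all-gene median, for 13 it lies below and for 4 above. Intervals were made for these 39 genes only, so no share over all genes stands beside these counts.

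Lars2, the mitochondrial leucyl-tRNA synthetase (mm9 chr9:123276057-123371782), stood apart in level and in difference. Its FPKM was 18.1 in APL#1 and 5.48 in APL#2, a 3.31-fold lower level in APL#2 (ratio 0.302, interval 0.283 to 0.323). In the authors' deposited table its p was 0.00144 and its q 0.460. Its level was 24.1-fold that of the cytosolic Lars in APL#1 and 5.70-fold in APL#2, and it was above that of all the other 38 members in both. The 13 other mitochondrial synthetase genes examined had medians of 0.471 and 0.463 FPKM, and the highest of them, Fars2, stood at 5.76 and 3.91.

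The Lars2 transcript shares sequence with other transcripts, and ribosomal RNA signal moved the same way. In the GENCODE transcript of 3894 bases, coding sequence ends at base 2905, and bases 3233 to 3329 match AA474408 (94.8% identity over 97 bases) and bases 3278 to 3349 match Gm15564 (98.6% over 72 bases). Neither has a row under that name in the table. Rn45s, the row for the ribosomal RNA precursor, had an FPKM of 34.0 in APL#1 against 14.4 in APL#2, with a ratio of 0.423. Its part in the Lars2 difference was not tested. With Lars2 left out, 0 of the 17 remaining measured members reached a 2-fold lower log2(FPKM + 1) value.

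The other 3 mitochondrial members were low. Yars2, for tyrosine, stood at 0.636 and 0.281 FPKM, a ratio of 0.441 (0.256 to 0.720), resting on about 51 and 24 fragments. Sars2, for serine, stood at 0.851 and 0.673, and Iars2, for isoleucine, at 0.832 and 0.810. Sars2 and Iars2 lay near the all-gene ratio. The transcript of Iars2 overlaps Rab3gap2 on the opposite strand over 2034 bases, and the sources used here do not state whether counting used strand. Among the 13 other mitochondrial synthetase genes, 3 were measured and 0 were at least 2-fold different on the log2(FPKM + 1) scale, with Cars2 at 1.53 and 1.36 FPKM.

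Asns, asparagine synthetase, which makes asparagine from aspartate and glutamine (mm9 chr6:7625170-7643182), had the lowest ratio of the members with more than 10 fragments in both libraries. Its FPKM was 1.49 in APL#1 and 0.404 in APL#2, a 3.70-fold lower level in APL#2 (ratio 0.270, interval 0.189 to 0.379), from about 154 and 45 fragments. The log2 ratio of -1.89 had an implied standard error of 1.11, and the p in the authors' deposited table was 0.0885. Asns lies on the proximal part of chromosome 6, outside the shifted stretch of that chromosome. Nars, which uses asparagine, and Dars, which uses aspartate, stood at ratios of 0.679 and 1.32.

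The enzymes at the start and the end of serine synthesis had a lower FPKM in APL#2, and the one between them did not. Phgdh, phosphoglycerate dehydrogenase, stood at 2.79 and 1.34 FPKM, a ratio of 0.482 (0.390 to 0.591). Psph, phosphoserine phosphatase, stood at 1.25 and 0.558, a ratio of 0.448 (0.316 to 0.622). Psat1, phosphoserine aminotransferase, which acts between them, went the other way at 0.586 and 0.838, a ratio of 1.43 (1.06 to 1.95). The log2 ratios of Phgdh, Psph and Psat1 were -1.05, -1.16 and 0.51, with implied standard errors of 0.96, 1.14 and 1.17. Psat1 lies on chromosome 19, where 303 genes at a mean of 0.25 FPKM or more had a median ratio of 1.58. Psat1 has a processed pseudogene, Gm12611, with 91.0% identity over 1056 bases. Phgdh shares 90.4% to 98.7% identity with 17 processed pseudogenes, and Psph overlaps Cct6a on the opposite strand over 452 bases, so the levels of all 3 are uncertain.

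Both serine hydroxymethyltransferases, which turn serine into glycine and a one-carbon unit, were lower in APL#2 as well. The cytosolic Shmt1 stood at 1.27 and 0.817 FPKM, a ratio of 0.644 (0.514 to 0.814). The mitochondrial Shmt2 stood at 1.80 and 1.19, a ratio of 0.659 (0.530 to 0.814). Both intervals lie below the all-gene ratio. Shmt1 overlaps Smcr8 (1.12 and 0.578 FPKM) on the opposite strand over 184 bases. Mthfd2, the mitochondrial folate dehydrogenase that follows Shmt2, stood at 0.834 and 0.884, a ratio of 1.06 (0.790 to 1.42). It lies in the distal chromosome 6 stretch, whose genes had a median ratio of 1.20. Other folate enzymes were all under a mean FPKM of 1; of 5 with a mean of at least 0.25, 4 were higher in APL#2 by plain ratio, where 69.7% of all genes were lower, and none reached 2-fold, as 7.32% of all genes did downwards and 3.27% upwards.

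The 4 starvation response genes were low in both leukaemias, and of them only Sesn2 had an interval wholly below the all-gene ratio. Sesn2, sestrin 2, a leucine sensor that restrains the growth kinase mTORC1, stood at 0.450 and 0.191 FPKM, a ratio of 0.426 (0.278 to 0.630). Ddit4, another inhibitor of mTORC1, stood at 0.543 and 0.306, a ratio of 0.563 (0.347 to 0.910), whose interval holds the all-gene ratio. Chac1, which breaks down glutathione, stood at 0.0769 and 0.0118, about 6 fragments against 1, and Trib3, a pseudokinase that restrains ATF4, at 0.0379 and 0.00875, about 4 against 1. The ratio of Chac1 was 0.154 (0.00335 to 1.27) and that of Trib3 0.231 (0.00469 to 2.34), so no difference in either gene was detectable at this depth. Chac1 lies in the chromosome 2 stretch, whose genes had a median ratio of 0.445.

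The amino acid transporters split. Slc1a5, which takes up glutamine, stood at 4.10 and 2.58 FPKM, a ratio of 0.630 (0.553 to 0.716). Slc3a2, the heavy chain CD98 that carries several light chains to the surface, stood at 1.90 and 3.13, a ratio of 1.64 (1.40 to 1.94). Its leucine-transporting partner Slc7a5 stood at 0.862 and 0.660, a ratio of 0.766 (0.602 to 0.972). The level of Slc3a2 was therefore 2.21-fold that of Slc7a5 in APL#1 and 4.75-fold in APL#2. Slc3a2 lies on chromosome 19, like Psat1, and its ratio is close to that chromosome's median of 1.58. Slc7a11, the cystine transporter that also pairs with Slc3a2, stood at 0.0571 and 0.0412, and its difference was not detectable at about 27 and 21 fragments. Its transcript shares 585 bases at 92.5% identity, on the opposite strand, with the tubulin gene Tuba1b (23.7 and 11.9 FPKM), and shorter stretches with Tuba1a and Tuba1c, so its level is uncertain.

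Of the 5 higher members, 3 (Psat1, Slc3a2 and Mthfd2) lie in stretches of the genome whose genes were higher together in APL#2. Dars and Lars lie outside the stretches examined, and the regions around them were not examined for a shift. Of all 8554 genes averaging 0.25 FPKM or more with signal in both libraries, 2589 were higher in APL#2. Of those 2589, 282 lie on chromosome 19, 199 in the chromosome 6 stretch and 6 in the chromosome 2 stretch. The stretches are known as shifted from these same libraries, and the part of position in the differences was not tested. Chac1 lies in the chromosome 2 stretch, whose genes were lower together. With all 3 stretches left out, 31 of 33 members averaging 0.25 FPKM or more were lower in APL#2 by plain ratio and 7 at least 2-fold lower, beside 69.7% and 7.32% of all genes at that level, stretches included.

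**Figure D3:**
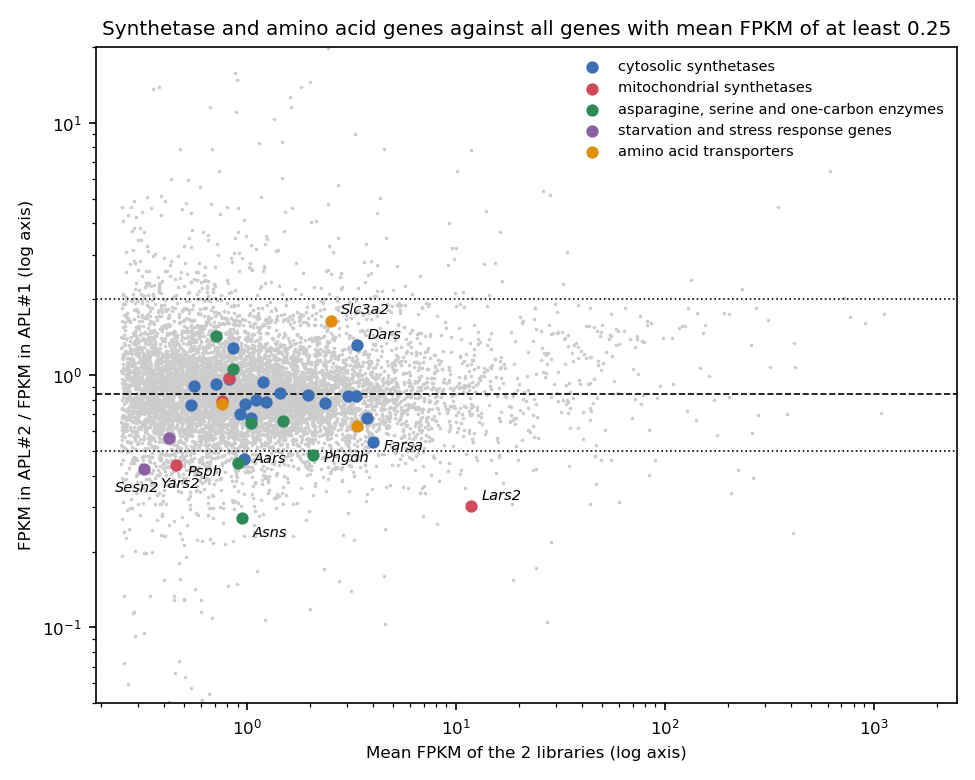
Ratio of FPKM in APL#2 to APL#1 against mean FPKM (both log axes) for genes with signal in both libraries that average 0.25 or more (grey; 22 of 8554 lie outside the ratios drawn, 0.05 to 20) and the 36 members among them (coloured by role); the dashed line is the all-gene median of 0.845 and dotted lines mark 2-fold. Most members lie in the body of the grey points, with Lars2 and Asns furthest below.

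Atf4 and Ddit3 stood near or above the all-gene ratio, while some other regulators were lower in APL#2. Atf4, the transcription factor, stood at 11.6 and 10.3 FPKM, and Ddit3, its partner CHOP, at 2.04 and 2.06. Of 7 measured genes among 14 kinases, ATF4 and partner factors, 2 lay below the all-gene median difference and 0 were at least 2-fold different on the log2(FPKM + 1) scale. Furthest below was Ppp1r15a, which encodes GADD34, the phosphatase subunit that ends the response, at 8.23 and 4.12 FPKM, and furthest above was the haem-regulated kinase gene Eif2ak1, at 2.46 and 2.54. ATF4 is controlled mainly by translation, and RNA levels do not measure it. Atf5, a related factor whose RNA was 0.944 and 0.210 FPKM, and Eif2ak4, which encodes GCN2, at 0.349 and 0.178 in the chromosome 2 stretch, were picked out after their values were seen.

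Other amino acid genes went both ways. Of 8 measured enzymes, 4 lay below the all-gene median difference and 0 were at least 2-fold different on the log2(FPKM + 1) scale. Bcat2, which starts the breakdown of branched-chain amino acids, stood at 3.14 and 1.83 FPKM, furthest below that median. The measured transporters were Slc38a2 (2.85 and 2.24 FPKM) and Slc38a10 (2.11 and 1.69), both near the all-gene ratio. Genes under a mean FPKM of 1 held wider ratios: the glutamine carrier gene Slc38a1 stood at 0.277 and 0.00944, and Glul, glutamine synthetase, at 0.176 and 0.803, both picked out after their values were seen.

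**Figure D4:**
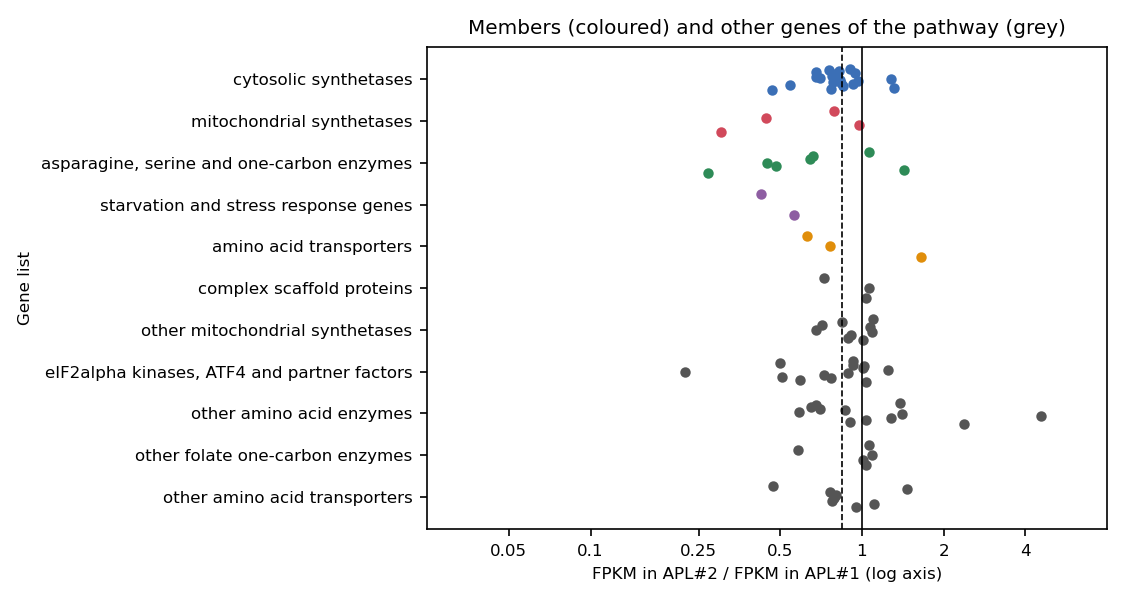
Ratio of FPKM in APL#2 to APL#1 (log axis) for each gene with signal in both libraries and a mean FPKM of at least 0.25, by list, with the 5 groups of members in colour and other genes of the pathway in grey; the dashed line is the all-gene median of 0.845 and the solid line equal levels. Among members, ratios below 0.5 are those of Asns, Phgdh, Psph, Aars, Lars2, Yars2 and, of the starvation genes, Sesn2. Among the grey genes they are those of Atf5 and the transporter gene Slc36a4. The scaffold genes and other mitochondrial synthetases stay near the lines.

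By markers the libraries held myeloid cells: all 9 myeloid markers in the table were measured, and the CD45 gene Ptprc had 4.66 and 4.10 FPKM. These levels per gene do not separate donor cells from myeloid cells of the recipient. Of the 9, 2 were at least 2-fold lower in APL#2, the granule protein genes Mpo (661.8 and 157.3 FPKM) and Elane (32.4 and 5.01). Genes of B cells, plasma cells, T and NK cells and erythroid cells had a mean FPKM under 1 throughout, and the plasma cell genes Prdm1, Sdc1 and Tnfrsf17 were listed at 0 in both. Summed FPKM in APL#1 and APL#2 was 0.208 and 0.444 for B cell markers, 0.283 and 0.161 for plasma cell markers, 0.0599 and 0.192 for T and NK cell markers and 0.0476 and 0.0243 for erythroid markers. Macrophage markers summed to 4.07 and 8.16 FPKM, most of it Vcam1 (3.94 and 7.47). Emr1, which encodes a macrophage surface protein, stood at 0.0230 and 0.537, while Marco and Spic were listed at 0 in both. The part of other cells in the differences above was not tested. In bulk RNA, fewer cells of a type and less RNA per cell cannot be told apart.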

How the data were processed

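RNA of 2 libraries was sequenced, 1 per leukaemia. Per the submitters' processing notes, the build was mm9 and the tools included Cuffdiff, Cufflinks and TopHat2 2.0.10, listed without their roles; the sources used here do not give annotation, strand, filters or scaling. The authors deposited 1 gene table. Its value columns were read as FPKM deposited by the authors, from the layout of a Cuffdiff table, since its header names no unit; they summed to 34893.9 and 35239.9. Its test statistic is a score, and its p-value and q-value are the authors' own, per the file headers. Coordinates marked mm9 are as deposited.

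Differences were log2((APL#2 + 1)/(APL#1 + 1)) with a pseudocount of 1, or plain ratios. Implied standard errors are the log2 ratio divided by the authors' statistic. The value of 1 fragment came from 92 genes with 1 RefSeq-linked GENCODE vM21 transcript, among 305 whose values stood in the commonest ratio of low values (1.08); this was tested on simulated data. Shared sequence was searched with blastn 2.17.0 (at least 90% identity over 50 bases). Python 3.11.15, scipy 1.17.1 and matplotlib 3.10.9 were used. Members and lists were chosen with earlier results of these data known. All 39 members are named; from the other lists, measured genes at least 2-fold different, or else the measured gene furthest from the median each way, plus Atf4, Ddit3 and the scaffold genes; 1 gene this rule names is not reported here. Alternatives changed the pseudocount, the filter, the scaling, the threshold and the chromosome stretches.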

Additional observations from a re-analysis of the deposited data

How the results depend on the processing

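The 2-fold calls rest on few genes. On the log2(FPKM + 1) scale, 1 member was at least 2-fold lower in APL#2; there were 2 with a pseudocount of 0.1, 3 with a 1.5-fold threshold, 7 by plain ratio among the 36 averaging 0.25 FPKM or more and 0 without Lars2 (6.15%, 10.1%, 7.32% and 2.42% of all genes under these settings, and 2.44% in the main one), the last 2 settings chosen after seeing the data. The count of higher members was 0 in every setting it was run in, the 1.5-fold threshold included. Few genes at large were higher either: 2.10% in the main setting and 5.49% with the 1.5-fold threshold. The lowest share was 0.548% (no filter) and the highest 5.80% (mean of at least 5). At such shares a count of 0 does not set the members apart. Members below the all-gene median difference numbered 14 of 18, and with other filters 28 of 39 (no filter), 23 of 33 (mean of at least 0.5), 25 of 36 (plain ratio) and 1 of 1 (mean of at least 5, where Lars2 alone is left, at -1.41, and no cytosolic synthetase gives a value). Each filter changes how many genes are tested, and the plain ratio changes the scale too. The count below the all-gene median was 13 of 18 with a pseudocount of 0.5, 12 of 17 without the shifted stretches and 13 of 17 without Lars2. It stayed at 14 of 18 with a pseudocount of 0.1 and with either rescaling. The members' median relative to all genes was -0.06, -0.14 with no filter, -0.13 by plain ratio and -0.16 as a mean. That of cytosolic synthetases was -0.03, -0.13 with no filter, -0.06 by plain ratio, -0.07 as a mean and -0.013 without the shifted stretches. None of these list values changed sign in the settings run. Of 156 values of single members under 4 settings (other pseudocounts and scalings), 144 moved by less than their counting error and 12 by more; Lars2, the 1 called member, stayed lower in all 4. No paired analysis was possible because each leukaemia has 1 library, and for the same reason none could be left out. Depth limits Chac1, Trib3 and Slc7a11 most.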
